A study of Mus musculus with 6 samples.

Results

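Keratins, claudins and the proteins of desmosomes and tight junctions were followed in 2 populations of cells sorted from neonatal mouse bladder. The members were every probe set of the array whose single gene symbol is a keratin (Krt), a claudin (Cldn), a desmosomal cadherin (Dsg, Dsc), a plakophilin (Pkp), a tight junction scaffold (Tjp), a Grainyhead-like factor (Grhl), or Dsp, Jup, Perp, Ocln, Epcam, Trp63 or Ripk4. The rule used gene names and no measured value, but it was set with earlier results of these data known. In all, 131 probe sets of 86 genes qualified among 18193 genes with 1 symbol. All cells came from male FVB/N mice at postnatal day 2 that carried both transgenes, SMGA/EGFP and SMAA/EYFP, in which promoters of smooth muscle gamma actin and smooth muscle alpha actin drive the reporters. The single-positive group (3 arrays) had EGFP but no EYFP, and the double-positive group (3 arrays) had both. The labels place both populations in the bladder's detrusor muscle, state that samples were not pooled, and do not tell to which animals the 3 arrays of each group belong. If animals were shared, the p-values reflect technical spread alone.

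Keratins are the intermediate filaments of epithelial cells and form obligate pairs of a type I with a type II chain. Desmosomes anchor these filaments at the cell surface, where desmogleins and desmocollins bridge neighbouring cells and desmoplakin, plakoglobin and plakophilins link them to the filaments. Claudins form the strands of tight junctions, together with occludin and the scaffold proteins of the Tjp family. In the bladder such proteins are best known from the urothelium, the epithelium that lines the lumen, while some are also made by endothelium, mesothelium or other cells.

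Each array gave 1 signal per probe set in arbitrary units, which cannot be compared between probe sets. The number of arrays limits the precision. Differences are of log2(signal + 25.042), double-positive minus single-positive, an offset that shrinks the changes of dim genes, and ± marks the SD of 3 arrays. All folds, also those above the level of the filter, come from means on this log2 scale with its offset. They therefore differ from ratios of the mean signals printed beside them. A gene took the values of its brightest probe set on average and was tested with limma when that mean lay above 6.82 on the log2 scale, a signal of 87.6 called the level of the filter here. Of the 86 genes, 48 were tested and 38 were not. Both groups had means above the level of the filter for 41 of the tested genes, and the single-positive group alone for the remaining 7. Of the 38 untested genes, 18 were below that level on every array.

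Most members that changed were lower in the double-positive cells. With limma and an adjusted p of 0.05 over all 13464 genes tested, 12 of the 48 fell and 1, Cldn1, rose. Over all tested genes 4.38% fell and 1.98% rose. The 12 were Ripk4, Perp, Krt15, Cldn23, Krt8, Dsg2, Cldn5, Krt7, Krt19, Krt18, Dsp and Pkp2. The median difference of the 48 was -0.41, against 0.02 for all tested genes, and for all 86 genes it was -0.12. A lower value was seen for 35 and a higher value for 13 of the 48, against 6485 and 6979 of all 13464 tested genes. The 7 genes with only the single-positive mean above the level of the filter had to be lower. They tilt this count and the median of the 48. The groups did not overlap, with the double-positive arrays lower, for 16 of the 48, and with those arrays higher for 2. Among all tested genes these shares were 11.9% and 10.5%. Of the 12 that fell, 9 had a double-positive mean above the level of the filter, and 3 (Ripk4, Krt15 and Cldn23) had one below it, so that they passed the filter through the single-positive arrays. The 12 became 7 without single-positive array 3, and the rises became 2 without double-positive array 2, when Krt10 passed as well.

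**Figure D1:**
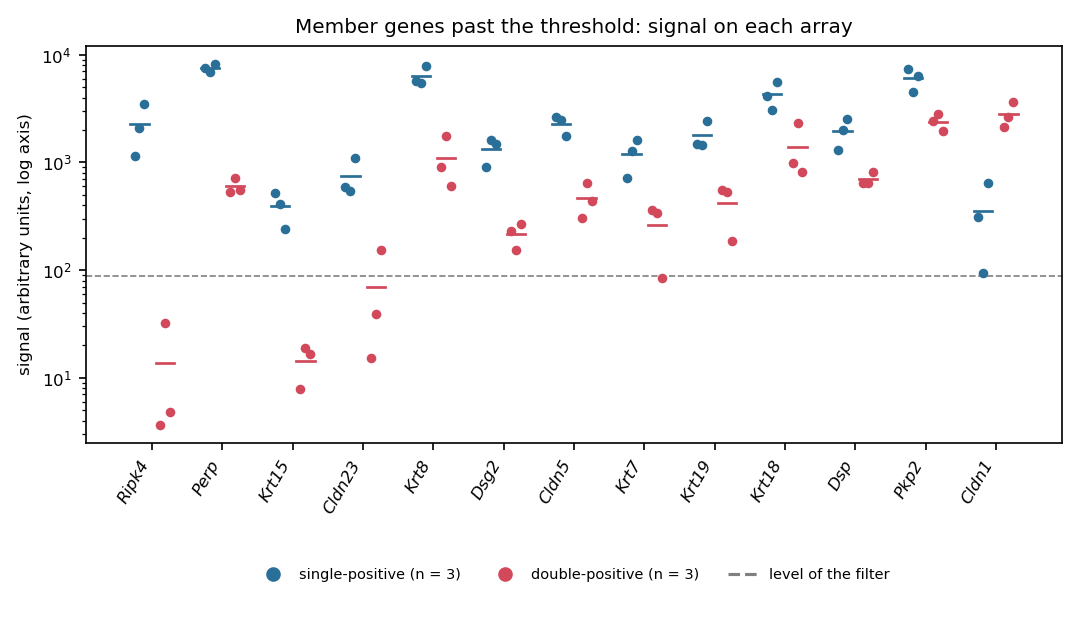
Signal on each array (log axis, arbitrary units) for the 13 member genes past the threshold; points are arrays, short lines are means of 3 arrays and the dashed line is the level of the filter at 87.6. For 12 genes all 3 double-positive points lie below all 3 single-positive points, and for Cldn1 they lie above.

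In bulk samples such as these, fewer cells of a type and less RNA per cell cannot be told apart. Markers of several cell types moved with the members. The shares over all tested genes were 4.38% lower and 1.98% higher. Of the urothelium markers, 4 of 11 tested fell (Upk1b, Upk3a, Shh and Foxa1) and 1, Fgfr3, rose. Their summed signal was 12801 to 18842 in the single-positive and 5243 to 9175 in the double-positive arrays. Fgfr3 gave 911 to 1329 of this signal in the single-positive and 2163 to 3517 in the double-positive arrays. Upk3b, which did not pass, gave 2035 of it on double-positive array 2. The sum therefore does not measure the 4 markers that fell. Of the endothelium markers 4 of 10 fell, with sums of 20498 to 25445 and 5947 to 8629. Leukocyte markers fell in 9 of 10 cases, nerve and Schwann cell markers in 4 of 6 and smooth muscle markers in 7 of 8. The smooth muscle sums were 234941 to 304155 and 75397 to 109694. Acta2, the smooth muscle marker that did not pass, gave 51633 to 67707 and 49474 to 71648 of these. Of the markers that fell, 2 of urothelium and 2 of nerve and Schwann cells had double-positive means below the level of the filter. Of the mesothelium markers 2 of 7 were tested with limma and 0 passed (0 at an unadjusted p under 0.05), with sums of 922 to 1062 and 607 to 2809, the highest on double-positive array 2. Fibroblast and mesenchyme markers did not pass in 6 of 6 cases (2 at an unadjusted p under 0.05), with overlapping sums of 269199 to 311682 and 268429 to 366374. No marker was at 0 on any array. The part of these cell types in the results below was not tested.

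**Figure D2:**
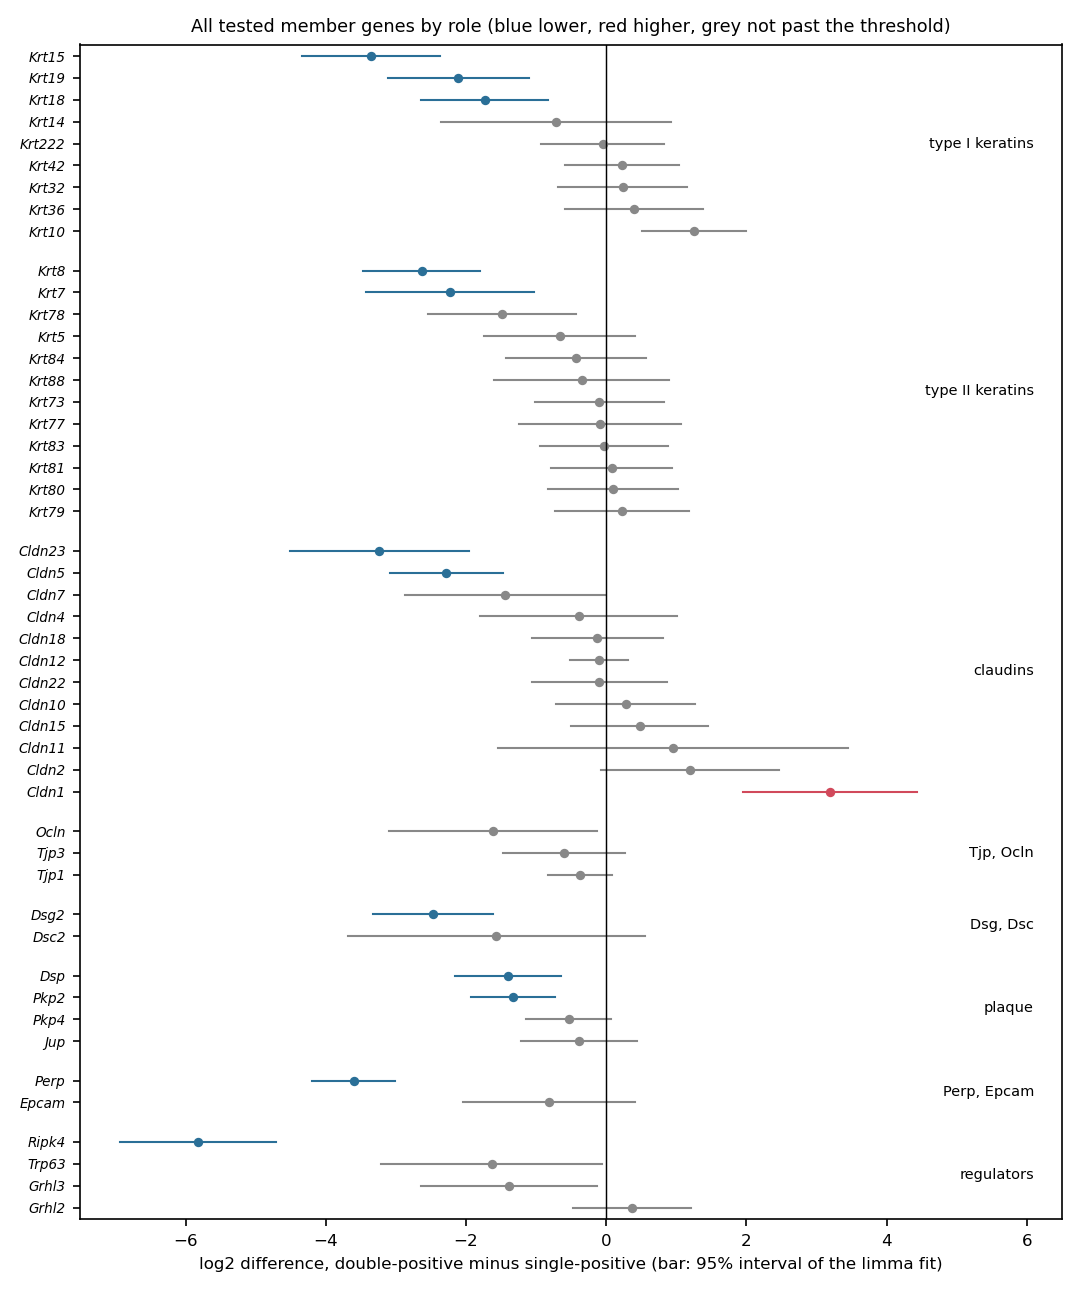
Log2 difference of each of the 48 tested member genes, grouped by role, with the 95% interval of the limma fit. Blue points fell, the red point (Cldn1, 3.20) rose, and grey points did not pass the threshold.

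The keratins of simple epithelia fell together. Krt8 and Krt18 form the filament pair of simple epithelia, and Krt7 and Krt19 accompany them in ductal and urinary epithelia. All 4 tested members of this list of 5 fell, against 4.38% of all tested genes, and the fifth, Krt20, was not tested. Krt8 signal was 5744, 5447 and 7895 on the single-positive arrays and 914, 1752 and 605 on the double-positive arrays. The groups were well apart, and double-positive array 2 held the highest value of its group. Mean Krt8 signal was 6362 ± 1336 in the single-positive and 1090.1 ± 593 in the double-positive group (SD, n = 3 each). The difference was -2.63 (SE 0.38, limma adjusted p = 0.00242), or 6.20-fold lower.

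Krt18, the partner of Krt8, gave 4185, 3061 and 5635 on the single-positive arrays and 986, 2333 and 820 on the double-positive arrays. Again double-positive array 2 was the highest of its group, and it lay close to the lowest single-positive array. Mean Krt18 signal was 4294 ± 1290.4 in the single-positive and 1379.5 ± 830.1 in the double-positive group (SD, n = 3 each). The difference was -1.73 (SE 0.41, limma adjusted p = 0.0315). Leaving out any array other than double-positive array 2 put it outside the threshold, with adjusted p up to 0.141.

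Krt19, a type I keratin of simple epithelia, gave 1489, 1441 and 2435 on the single-positive arrays and 555, 533 and 185 on the double-positive arrays. Double-positive array 3 was the lowest here, and the groups were apart. Mean Krt19 signal was 1788 ± 561 in the single-positive and 424 ± 208 in the double-positive group (SD, n = 3 each). Its difference was -2.11 (SE 0.45, limma adjusted p = 0.0197), and it missed the threshold without single-positive array 2 or 3 (adjusted p = 0.0582 and 0.0990). Krt7, its frequent type II companion, gave 718, 1269 and 1633 against 364, 336 and 84.8, with the same array lowest. Mean Krt7 signal was 1206 ± 461 in the single-positive and 262 ± 154 in the double-positive group (SD, n = 3 each). Its difference was -2.23 (SE 0.54, limma adjusted p = 0.0350), or -1.64 without double-positive array 3, and it missed the threshold without single-positive array 2 or 3 (adjusted p = 0.131 and 0.145). Krt20, the keratin of the superficial umbrella cells of the urothelium, read 29.5, 277 and 124 on the single-positive and 9.51, 92.5 and 28.6 on the double-positive arrays. These groups overlapped, and most values were near or below the level of the filter.

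The 4 falling keratins can be set beside the uroplakins, the membrane proteins of umbrella cells. Upk1b and Upk3a fell, with differences of -3.17 (SE 0.44) and -2.75 (SE 0.39). Upk2 and Upk1a did not pass, with differences of -0.65 (95% interval -1.44 to 0.14) and -0.30 (-1.25 to 0.64). Upk3b, which mesothelium also makes and which is in both marker lists, had 0.12 (95% interval -1.40 to 1.64), with double-positive array 2 at 2035 and the other arrays at 220 to 692. Keratin and uroplakin differences were not tested against each other.

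The regions just upstream of Krt8 and Krt18 are shown because these genes fell together and are neighbours. Krt7 is added as the other falling keratin for which such a region was at hand. In the RefSeq gene table no other protein-coding gene lies between Krt8 and Krt18, nor between Krt15 and Krt19. Krt78, on the other side of Krt8, did not pass, with a difference of -1.48 (SE 0.47, limma adjusted p = 0.111). Its groups did not overlap, with the double-positive arrays lower, as for 11.9% of all tested genes. Every double-positive value of Krt78, 29.7 to 82.3, was below the level of the filter. Krt78 thus passed the filter through the single-positive arrays and had to be lower. The sequences are the 250 bases before the annotated start, 5′ to 3′ on the gene's strand, from RefSeq (GRCm38.p6). Capitals mark CAGGTG or its reverse complement CACCTG, the E-box to which repressors of the Zeb and Snail families bind. Cldn1, which rose, is given for comparison.

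Krt8, chr15:102004343-102004592, minus strand: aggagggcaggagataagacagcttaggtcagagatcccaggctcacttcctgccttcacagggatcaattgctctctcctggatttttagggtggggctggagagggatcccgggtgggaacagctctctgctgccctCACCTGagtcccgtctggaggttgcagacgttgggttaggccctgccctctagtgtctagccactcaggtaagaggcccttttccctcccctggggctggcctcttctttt

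Krt18, chr15:102027966-102028215, plus strand: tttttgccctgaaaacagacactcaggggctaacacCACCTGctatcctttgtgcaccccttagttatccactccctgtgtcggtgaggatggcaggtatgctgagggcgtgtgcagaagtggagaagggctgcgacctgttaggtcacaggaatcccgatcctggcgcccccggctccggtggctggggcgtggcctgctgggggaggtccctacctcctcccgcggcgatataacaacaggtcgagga

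Krt7, chr15:101412153-101412402, plus strand: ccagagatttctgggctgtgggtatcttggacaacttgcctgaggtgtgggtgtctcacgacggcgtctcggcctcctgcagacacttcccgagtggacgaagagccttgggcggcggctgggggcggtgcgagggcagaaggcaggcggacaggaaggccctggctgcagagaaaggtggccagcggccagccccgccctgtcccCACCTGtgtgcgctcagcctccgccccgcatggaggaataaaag

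Cldn1, chr16:26371840-26372089, minus strand: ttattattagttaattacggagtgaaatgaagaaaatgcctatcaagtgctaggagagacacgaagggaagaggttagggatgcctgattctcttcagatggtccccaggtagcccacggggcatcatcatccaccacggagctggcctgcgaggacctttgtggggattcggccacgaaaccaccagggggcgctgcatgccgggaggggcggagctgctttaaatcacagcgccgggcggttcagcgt

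Each of the 3 keratin sequences holds this E-box once, and the Cldn1 sequence does not hold it. The search covered 300-base windows, which add 50 bases after the start, on both strands. The RefSeq table held 69 windows for 56 of the member genes, of which 25 (36.2%) held CAGGTG, against 20.2% of all 32851 windows. Of the genes that fell, 5 had a window, and 4 of these (Krt7, Krt8, Krt18 and Dsp) held it while Cldn5 did not. In Dsp it lay after the start. The regions of Dsp and Cldn5 are not printed, and neither holds this E-box in the 250 bases before the start. The palindrome AACCGGTT, bound by Grainyhead-like factors, was in 0 of the 69 windows and in 0.146% of all windows. TGANTCA, the AP-1 motif, was in 5.80% of the members' windows and in 7.81% of all. None of these motifs contains another. These counts describe letters in short windows and not binding.

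Keratins of basal cells did not move as a group. Krt15, a type I keratin of basal layers, gave 524, 414 and 242 on the single-positive and 7.88, 18.7 and 16.7 on the double-positive arrays. Every double-positive value was far below the level of the filter, so the size of the fall rests on the offset. Mean Krt15 signal was 393 ± 142 in the single-positive and 14.4 ± 5.76 in the double-positive group (SD, n = 3 each). The fit gave -3.36 (SE 0.44, limma adjusted p = 0.00164), and the single-positive mean was 3.56-fold above the level of the filter. With a larger or smaller offset the difference was -2.13 or -4.04.

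Krt5 and Krt14, the classical filament pair of basal epithelial cells, did not pass. Krt5 gave 298, 209 and 559 on the single-positive and 315, 117 and 205 on the double-positive arrays, with a difference of -0.67 (95% interval -1.75 to 0.42). Krt14 gave 126, 115 and 159 against 34.4, 343 and 15.0, so that double-positive array 2 was above all single-positive arrays and the other two were below them. The Krt14 difference was -0.72 (95% interval -2.35 to 0.92), a range that holds both a large fall and a modest rise. Krt17, a further type I keratin of basal cells, was not tested, with values of 12.0 to 54.2 and 21.6 to 101. The probe sets of Krt14 and Krt17 can bind RNA of similar sequence, and 1 probe set that names both genes was left out.

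**Figure D3:**
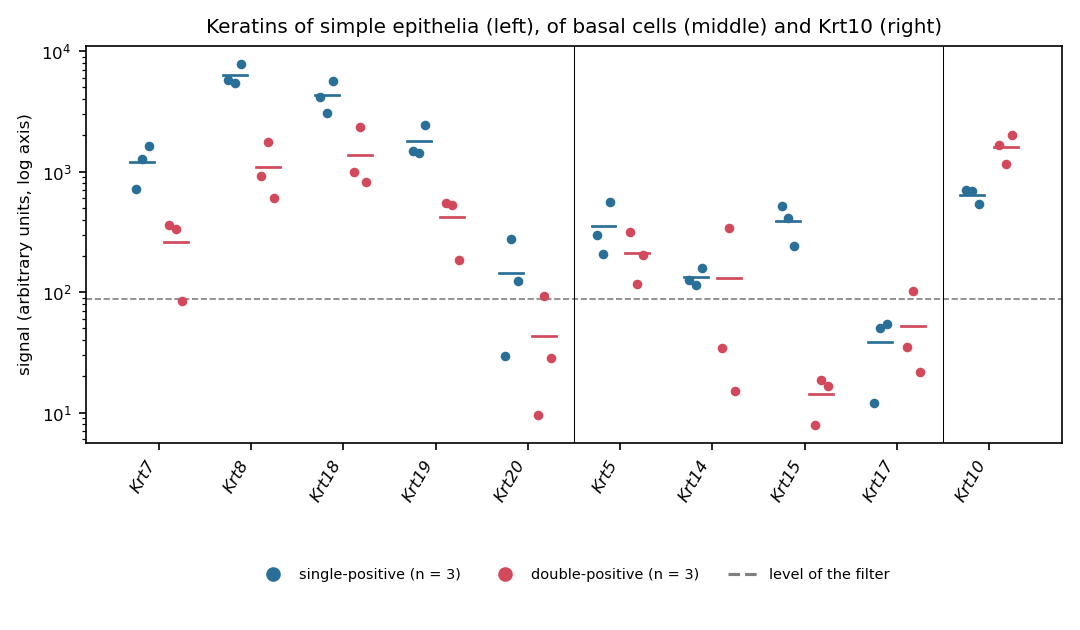
Signal on each array (log axis, arbitrary units) for the keratins of simple epithelia, those of basal cells and Krt10; points are arrays, short lines means of 3 arrays, the dashed line the level of the filter. The groups are apart for Krt7, Krt8, Krt18, Krt19, Krt15 and Krt10, and overlap for Krt20, Krt5, Krt14 and Krt17.

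Of the other 35 keratins, which were all those in neither list above, 14 were tested with limma and 0 passed (2 at an unadjusted p under 0.05). The tested ones had a median difference of 0.02 and a range of -1.48 to 1.25. Krt10, a type I keratin of differentiating epidermis, was the highest of these and was singled out after its values were seen. It gave 710, 687 and 540 on the single-positive and 1667, 1148 and 1999 on the double-positive arrays, with all double-positive arrays above all single-positive ones. The difference was 1.25 (SE 0.33, limma adjusted p = 0.0535), just outside the threshold. It was inside under 5 of 18 alternatives, with adjusted p from 0.0178 to 0.185 over them, among them the fit without double-positive array 2 (adjusted p = 0.0375). Of all 21 tested keratins 5 fell and 0 rose past the threshold, against 4.38% and 1.98% of all tested genes.

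Claudins differed in direction among themselves. Of 20 claudin genes 12 were tested, of which 2 fell, 1 rose and 9 did not pass, with a median of -0.10. Of all tested genes 4.38% fell and 1.98% rose. Cldn5, the main claudin of endothelial tight junctions, gave 2648, 2480 and 1759 on the single-positive and 307, 649 and 439 on the double-positive arrays. The groups were well apart. Mean Cldn5 signal was 2296 ± 472 in the single-positive and 465 ± 172 in the double-positive group (SD, n = 3 each). The difference was -2.28 (SE 0.36, limma adjusted p = 0.00423), or 4.86-fold lower. Cdh5, the cadherin of endothelial junctions, had -2.41 (SE 0.33) in the same fit, and double-positive array 2 was the highest of its group for both genes.

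Cldn23 gave 588, 539 and 1105 on the single-positive and 15.1, 39.5 and 155 on the double-positive arrays. Only double-positive array 3 was above the level of the filter in its group. Mean Cldn23 signal was 744 ± 313 in the single-positive and 69.9 ± 74.8 in the double-positive group (SD, n = 3 each). The difference was -3.24 (SE 0.58, limma adjusted p = 0.00791), or -3.84 without double-positive array 3, and the single-positive mean was 6.49-fold above the level of the filter.

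Cldn1, a widely expressed claudin that seals the epidermal barrier, went the other way. It gave 313, 94.6 and 643 on the single-positive and 2123, 2626 and 3623 on the double-positive arrays. Every double-positive array was above every single-positive array, and single-positive array 2 was near the level of the filter. Mean Cldn1 signal was 350.3 ± 276 in the single-positive and 2791 ± 764 in the double-positive group (SD, n = 3 each). The difference was 3.20 (SE 0.56, limma adjusted p = 0.00728), or 9.16-fold higher, and it was 2.53 without single-positive array 2. It came from 1 of 4 probe sets, one designed to match several transcripts. The probe sets taken for Krt7, Krt8, Dsg2, Dsp, Pkp2 and Ripk4, which fell, were of this kind too. A second tested probe set of Cldn1 had a difference of 0.58 (95% interval -0.46 to 1.63) with overlapping groups, and the remaining 2 were too dim to test. Averaged over its probe sets Cldn1 had 0.84 (limma adjusted p = 0.262). The rise therefore holds for 1 probe set.

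Cldn7 and Cldn4, claudins of tight epithelia, did not pass. Cldn7 gave 442, 693 and 705 on the single-positive and 53.6, 555 and 243 on the double-positive arrays, a difference of -1.44 (SE 0.64, limma adjusted p = 0.279). Double-positive array 2 reached into the single-positive range. Cldn4 gave 162, 219 and 326 against 53.9, 486 and 150, with the same array above all others, and its difference of -0.39 became 0.25 without double-positive array 1. Cldn8, which was not tested, had 127, 138 and 302 against 4.98, 74.1 and 25.8, with groups that did not overlap. The 4 probe sets of Cldn3 were not tested either. On 2 of them every double-positive array was lower than any single-positive array, as for 3506 of all 45037 probe sets. Both group means of these 2 were below the level of the filter. Of the others, 1 had a higher double-positive mean (25.6 against 16.0) and 1 a lower one (18.5 against 48.2).

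Other claudins followed no common course. Cldn11, known from myelin and from mesenchyme-derived cells, spread from 46.9 to 1216 in the single-positive and from 239 to 3271 in the double-positive arrays. Its difference of 0.95 (95% interval -1.54 to 3.45) turned to -0.41 without single-positive array 1 and to -0.06 with array weights. Cldn12, which is expressed in many tissues, lay between 7553 and 8277 in the single-positive and between 6841 and 7746 in the double-positive arrays, and its 95% interval of -0.51 to 0.31 leaves room for small differences alone. Cldn2, a claudin of leaky epithelia, had 1.19 (SE 0.57, limma adjusted p = 0.325), carried by double-positive arrays 1 and 3 at 630.5 and 316, since array 2 at 103 was within the single-positive range of 90.2 to 135.

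Tight junction scaffolds and occludin did not pass. Tjp1, a scaffold protein found at many kinds of cell contact, gave 24812, 21941 and 15487 on the single-positive and 15551, 13746 and 18032 on the double-positive arrays, a difference of -0.38 (95% interval -0.83 to 0.08). Ocln, the tight junction protein occludin, gave 166, 192 and 384 against 144, 3.04 and 99.0, with groups that did not overlap. Its difference was -1.62 (SE 0.67, limma adjusted p = 0.235), and the double-positive mean was below the level of the filter. Tjp3, a scaffold largely restricted to epithelia, had -0.61 (95% interval -1.48 to 0.26), again without overlap.

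Among desmosome genes 3 of 6 tested fell and 3 did not pass, against 4.38% of all tested genes that fell. The remaining 6 of the 12 genes were not tested. Dsg2, the desmoglein of simple epithelia, gave 901, 1600 and 1496 on the single-positive and 231, 154 and 269 on the double-positive arrays. The lowest single-positive value was more than the highest double-positive value by a wide margin. Mean Dsg2 signal was 1332 ± 377 in the single-positive and 218 ± 58.4 in the double-positive group (SD, n = 3 each). The difference was -2.47 (SE 0.38, limma adjusted p = 0.00390), and a further probe set of Dsg2 also fell, with -3.47 (SE 0.57, limma adjusted p = 0.0112 over all 27022 probe sets tested). Its remaining probe sets were too dim to test, and 1 of them had a higher double-positive mean (76.5 against 54.0). Over 18 alternatives the difference of the gene was -3.47 to -1.41, past the threshold each time. Dsc2, the desmocollin of simple epithelia, gave 257, 168 and 165 against 4.66, 2.06 and 471. Double-positive array 3 was above every other array while the other two were far below. The Dsc2 difference of -1.57 (SE 0.95, limma adjusted p = 0.471) became -2.94 (adjusted p = 0.00815) without double-positive array 3. Dsg1a, Dsg1b, Dsc1 and Dsc3, which belong to stratified epithelia, were not tested.

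Of the 6 desmosomal plaque genes 2 fell, 2 did not pass, and Pkp1 and Pkp3, the plakophilins of stratified and many other epithelia, were not tested. Pkp2, the plakophilin of simple epithelia and heart muscle, gave 7441, 4504 and 6398 on the single-positive and 2437, 2792 and 1969 on the double-positive arrays. Mean Pkp2 signal was 6114 ± 1489 in the single-positive and 2399 ± 412 in the double-positive group (SD, n = 3 each). The groups were apart, with a difference of -1.32 (SE 0.27, limma adjusted p = 0.0156), or 2.50-fold lower. It missed the threshold without single-positive array 1 or 3 (adjusted p = 0.0737 and 0.0810) and when averaged over the gene's probe sets (-0.74, adjusted p = 0.389). Its 3 other tested probe sets had -1.12, -0.85 and 0.35 and did not pass.

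Dsp, the desmoplakin that ties keratin to the plaque, gave 1307, 2013 and 2549 on the single-positive and 647.0, 647.1 and 817 on the double-positive arrays. Mean Dsp signal was 1956 ± 623 in the single-positive and 704 ± 98.2 in the double-positive group (SD, n = 3 each). The groups did not overlap, and the difference was -1.40 (SE 0.34, limma adjusted p = 0.0351). A further probe set had -1.57, but over all probe sets neither passed (limma adjusted p = 0.0641 and 0.0722). Leaving out single-positive arrays 2 or 3, or double-positive arrays 1 or 2, also put the gene outside the threshold, with adjusted p of 0.0852 to 0.164. Averaged over its probe sets it had -0.93 (limma adjusted p = 0.133).

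Jup, plakoglobin, a plaque protein of both desmosomes and adherens junctions, had -0.39 (95% interval -1.22 to 0.44) with overlapping groups. Pkp4, a plakophilin relative of adherens junctions, gave 9718, 10139 and 9279 on the single-positive and 5633, 5089 and 10510 on the double-positive arrays. Its difference of -0.53 (SE 0.27, limma adjusted p = 0.366) became -0.86 (adjusted p = 0.0275) without double-positive array 3, the array that also stood apart for Dsc2.

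Perp fell and Epcam did not pass in the fit by gene. Perp, a tetraspan protein needed for desmosome assembly, gave 7475, 6937 and 8287 on the single-positive and 535, 720 and 554 on the double-positive arrays. Values within each group were close together. Mean Perp signal was 7566 ± 679 in the single-positive and 603 ± 102 in the double-positive group (SD, n = 3 each). The difference was -3.60 (SE 0.26, limma adjusted p = 0.000107), or 12.2-fold lower, and it was -3.73 to -3.47 over 18 alternatives. Epcam, an adhesion molecule of simple epithelia, depended on the probe set. The one of highest mean, which can bind RNA of similar sequence, gave 1776, 1160 and 6505 against 1569, 956 and 1617. Its difference was -0.81 (95% interval -2.04 to 0.41). The other gave 1593, 1290 and 1837 against 317, 106 and 289, with groups far apart and -2.71 (SE 0.44, limma adjusted p = 0.0113 over all probe sets tested). Single-positive array 3 was far above the rest on the first and not on the second.

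Ripk4, a kinase of the epidermal differentiation programme, gave 1148, 2110 and 3525 on the single-positive and 3.63, 32.5 and 4.81 on the double-positive arrays. All double-positive values were below the level of the filter. Mean Ripk4 signal was 2261 ± 1195 in the single-positive and 13.7 ± 16.3 in the double-positive group (SD, n = 3 each). The difference of -5.82 (SE 0.50, limma adjusted p = 0.000235) rests on the offset, and the single-positive mean was 18.4-fold above the level of the filter. Its other probe set fell as well (limma adjusted p = 0.00960 over all probe sets tested), again with every double-positive value, 15.7 to 43.3, below the level of the filter and a single-positive mean 3.95-fold above it.

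The transcription factors were less clear. Trp63, the p53 relative that maintains basal epithelial cells, gave 611, 141 and 729 on the single-positive and 78.6, 325 and 48.3 on the double-positive arrays, which overlapped. Its difference was -1.63 (SE 0.71, limma adjusted p = 0.263), and its 3 other probe sets were too dim to test. Grhl3, a Grainyhead-like factor needed for umbrella cell differentiation, gave 232, 234 and 669 against 45.8, 194 and 141, a difference of -1.39 (SE 0.56, limma adjusted p = 0.226) without overlap. Grhl2, its relative in simple epithelia, had 0.37 (95% interval -0.47 to 1.20) on the probe set of highest mean and -1.43 (SE 0.62, limma adjusted p = 0.360) on another. Grhl1 was left out by the filter although its single-positive arrays read 458, 256 and 154, because its double-positive arrays read 9.18, 8.86 and 3.90. With no filter its difference was -3.17 (limma adjusted p = 0.00478), a size that rests on the offset. Grhl1 was singled out after its values were seen.

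**Figure D4:**
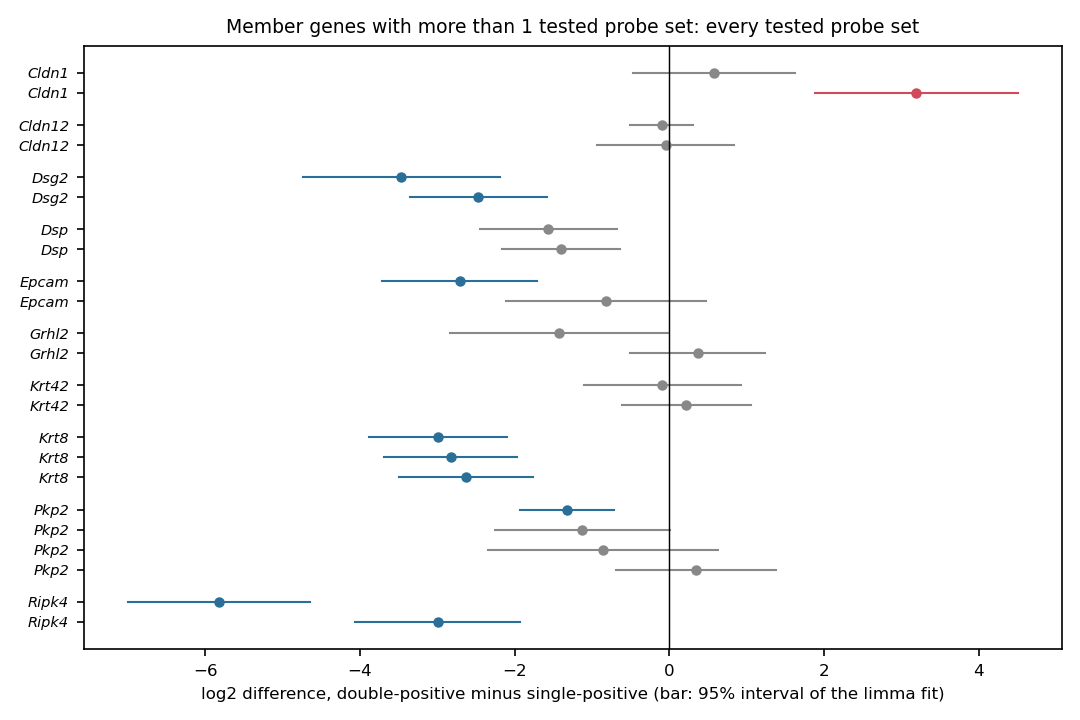
Log2 difference with the 95% interval of the limma fit for every tested probe set of member genes that have more than 1. All tested probe sets of Krt8, Dsg2 and Ripk4 lie below 0 and passed (blue), while Epcam and Pkp2 passed on 1 and Cldn1 rose on 1 (red).

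In the fit over all 27022 probe sets, 14 member probe sets fell and 1 rose among 61 tested, while 70 of the 131 were not tested. Over all tested probe sets 2.42% fell and 1.01% rose. The 15 belonged to 11 genes. Of these, 10 had also passed in the fit by gene, and the eleventh was Epcam. Krt7, Krt18 and Dsp passed by gene and not by probe set. The 3 probe sets of Krt8 had differences of -2.63, -2.83 and -2.99, which is a narrow range. The number that fell was 7 to 15 when single arrays were left out, lowest without single-positive array 3, and 8 and 9 without single-positive arrays 2 and 1. Cldn1 no longer passed there when single-positive array 1 or double-positive array 2 was left out.

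Other epithelial genes, none of them members, were read for comparison. The list holds junction and polarity genes, proteases and their inhibitors, basement membrane genes, splicing factors, and activators and repressors of transcription. Of 47 on the array 37 were tested, of which 5 fell, 1 rose and 31 did not pass, with a median of -0.15. Among all tested genes 4.38% fell and 1.98% rose. Cdh1 (E-cadherin), the cadherin of epithelial adherens junctions, gave 991, 769 and 2191 on the single-positive and 87.4, 71.5 and 184 on the double-positive arrays. The groups were far apart, with a difference of -3.21 (SE 0.49, limma adjusted p = 0.00354). Spint2, an inhibitor of epithelial serine proteases, had -3.45 (SE 0.46), Lama3, a laminin chain of epithelial basement membranes, -2.04 (SE 0.39), Tfap2a, a transcription factor of surface ectoderm, -1.89 (SE 0.47), and St14, the membrane protease matriptase, -1.74 (SE 0.41). Every double-positive value of St14, 45.8 to 76.5, was below the level of the filter. St14 thus passed the filter through the single-positive arrays. For Cdh1 the double-positive mean was 1.17-fold above that level. The 5 genes that fell became 2 when single-positive array 2 was left out, and 3 when single-positive array 3 or double-positive array 1 was. The catenins Ctnna1 and Ctnnb1, which every adherens junction uses, had 0.03 and -0.03.

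Snai2, a repressor of the Snail family that binds the E-box shown above, was the related gene that rose. It gave 6293, 9718 and 5827 on the single-positive and 20839, 20129 and 25225 on the double-positive arrays, all above the first group. The difference was 1.63 (SE 0.22, limma adjusted p = 0.00201), or 3.09-fold higher. The probe set taken for Snai2, like that of Spint2, can bind RNA of similar sequence. Both genes were past the threshold under all 18 alternatives. Zeb1, another repressor of epithelial genes, had -0.68 (SE 0.20, limma adjusted p = 0.0826) without overlap, and Zeb2 had -0.01 (95% interval -0.55 to 0.52). F11r, a junctional adhesion molecule that accompanies claudins, had 1.08 (SE 0.36, limma adjusted p = 0.128), again without overlap. Whether these genes bear on the keratins or claudins was not tested.

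The members that fell did not share 1 order of arrays. Double-positive array 2 was the highest of its group for 7 of the 12, including Krt8, Krt18 and Cldn5, and double-positive array 3 the lowest for 5, among them all 4 keratins of simple epithelia. Single-positive array 3 was the highest of its group for 8 of the 12, again with all 4 of these keratins. Among all 590 genes that fell, double-positive array 2 was the highest of its group for 244. Double-positive array 3 was the lowest for 126 of the 590, and single-positive array 3 the highest for 154. These arrays also differed as wholes. Within their groups, single-positive array 3 and double-positive array 2 had the highest median signals (199 and 199.8) and the lowest log2 ratios of 3′ to 5′ Actb signal (1.69 and 1.48), a measure of RNA integrity. Double-positive array 3 had the lowest median of all arrays (147) and the highest ratio (3.004). Among the double-positive arrays the summed markers of 6 of the 7 cell types, all but fibroblast and mesenchyme, were highest on array 2. Among the single-positive arrays those of urothelium and of nerve and Schwann cells were highest on array 3. With the Actb ratio as a covariate 12 member genes fell and 2 rose; the part of these array differences in the order was not tested.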

How the data were processed

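RNA of 6 samples was measured on Affymetrix MOE430 arrays. Per the labels' protocols it was amplified in 2 rounds, which starts at the 3′ end, so distant probe sets can lose signal. The deposited values are linear signal intensities, made with GCOS per the submitters' processing notes, with algorithm and version not given in the sources used here. Every array had the same mean after trimming 2% at each end, so the authors' values had been scaled, and a difference in total RNA cannot be seen.

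Gene symbols came from the platform annotation, with 86 of 86 member genes matched to RefSeq by Entrez identifier and 0 symbols changed. Values became log2(signal + 25.042), the 20th percentile of all values. Array medians differed 1.36-fold and were not rescaled. The filter was the 40th percentile of 45037 probe set means. The test was two-sided and used limma 3.58.1 (lmFit, eBayes with a trend; R 4.3.3). P-values were adjusted by Benjamini-Hochberg across every gene tested, and separately across every probe set tested. The fit was tested on simulated data. Members and lists were chosen with earlier results of these data known. Named were all members past the threshold in either fit, the 2 of smallest p per role, set markers such as Krt5, Krt14, Krt20, Trp63, Cldn4 and Cldn11, related genes past the threshold, and Zeb1 and Zeb2. Other names were chosen after their values were seen. Alternatives covered normalization, offset, filter, choice of probe set, variance model, weights, the replicate number as a block, the 3′ to 5′ Actb ratio and leaving out each array. At most 13 probe sets had the same value on a pair of arrays. The main fit did not pair samples by replicate number. The labels do not tell whether samples of the same number share an animal.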

Additional observations from a re-analysis of the deposited data

How the results depend on the processing

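Of the 13 member genes past the threshold, 7 (Ripk4, Perp, Krt15, Cldn23, Krt8, Dsg2 and Cldn5) kept direction and threshold under every alternative in which they were tested, 6 missed it under at least 1, and 0 reversed. The members that fell numbered 7 to 13 and those that rose 1 to 2 when single arrays were left out; by probe set they numbered 7 to 15 and 0 to 1, and related genes 2 to 6 and 1. The rises by gene numbered 2 with the 60th percentile filter, array weights or the Actb ratio, and 0 with unshared probe sets first; by probe set they numbered 0 with no variance trend and 2 with array weights. Related genes that fell numbered 2 with the 60th percentile filter (fewer genes tested), 8 with array weights and 3 with averaged probe sets. Values that changed sign were all unpassed ones: Cldn11 (-0.06 with array weights, and -0.41 to 1.85 when single arrays were left out, negative without single-positive array 1), Cldn4 (-1.10 to 0.25, positive without double-positive array 1) and Zeb2 (0.04 with median centring, 0.21 with averaged probe sets, and -0.20 to 0.18, being 0.02 without single-positive array 3 and 0.18 without double-positive array 2). The cause was not tested. Between samples of the same replicate number, deviations from the group means had correlations of 0.09, 0.03 and -0.07. With 3 arrays a group these values cannot decide whether such samples share an animal. With the replicate number as a block 12 member genes fell and 1 rose. By probe set 12 then fell and 1 rose, and of the related genes 4 fell and 1 rose. Krt18 and Krt7 missed the threshold with no filter (adjusted p = 0.0507 and 0.0668) and with no variance trend (adjusted p = 0.0782 and 0.0702), and Dsp with no filter (adjusted p = 0.0548). Signal near the offset limits Ripk4, whose difference was -6.69 with the smaller and -4.33 with the larger offset.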
